A study of Homo sapiens with 6 samples.

Results

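The genes described here are MET and MST1R, which make up the MET family of receptor tyrosine kinases, AXL, MERTK and TYRO3, which make up the TAM family, and ligands of both families, HGF, GAS6 and PROS1. The set holds 8 gene symbols, and members were taken by symbol. Of the 30330 genes in the deposited tables, 7 matched, and HGF was not analysed here. All 7 passed the filter on low values and were tested.

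The libraries came from NCI-H1975, an established human lung adenocarcinoma cell line known to carry an activating EGFR mutation together with a gatekeeper mutation, and from an osimertinib-resistant derivative named H1975/OSI. Osimertinib is a covalent inhibitor of mutant EGFR. The derivative had been selected over 7 months with doses of 0.03, 0.1, 0.3, 1 and 3 µM, per the labels. There were 3 resistant libraries, titled Drug, and 3 control libraries, titled Control. The labels name the same parental line and total RNA for both groups. They do not say whether drug was present at harvest, or whether the derivative was a clone or a pool. They also do not state separate cultures for the 3 libraries of a group, and the p-values below reflect variation among these libraries only, some or all of which may be technical.

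MET is the receptor for hepatocyte growth factor, the product of HGF, and MST1R, also called RON, is its closest relative and binds macrophage-stimulating protein, the product of MST1. Both ligands are secreted as inactive precursors and are cut by serine proteases before they can activate a receptor. AXL, MERTK and TYRO3 bind the vitamin K-dependent proteins GAS6 and PROS1, which bridge the receptors to phosphatidylserine on membranes. In lung adenocarcinoma treated with EGFR inhibitors, signalling through MET or AXL is known as a bypass route to the pathways below EGFR.

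Between 15174126 and 16588479 reads per library could be recovered from the deposited values, which are reads divided by a size factor and are called normalized reads here. Resistant replicate 1 stood apart. Its chi-square per gene was 10.8 and 12.1 against the other 2 resistant libraries, while every other pair within a group lay between 2.32 and 3.66. In the test across 24560 genes, limma with Benjamini-Hochberg adjustment called 41.5% of genes different at an adjusted p under 0.05, with 20.4% higher and 21.1% lower in the resistant line. The ranges of the 2 groups did not overlap for 50.1% of tested genes, with 24.7% higher and 25.4% lower. A fold change below is on the log2(value + 1) scale, resistant minus control, with its standard error. In bulk RNA, fewer cells making a transcript and less of it per cell cannot be told apart.

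Of the 7 genes measured, 5 were called, GAS6 and PROS1 higher and AXL, MERTK and MST1R lower in the resistant line. Among all tested genes 41.5% were called, 20.4% higher and 21.1% lower. MET and TYRO3 were not called. All 7 had groups whose ranges did not overlap, a pattern shared by 50.1% of tested genes (24.7% higher, 25.4% lower). Median log2 fold change was -0.16 over the 7 genes and 0.01 over all tested genes.

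**Figure D1:**
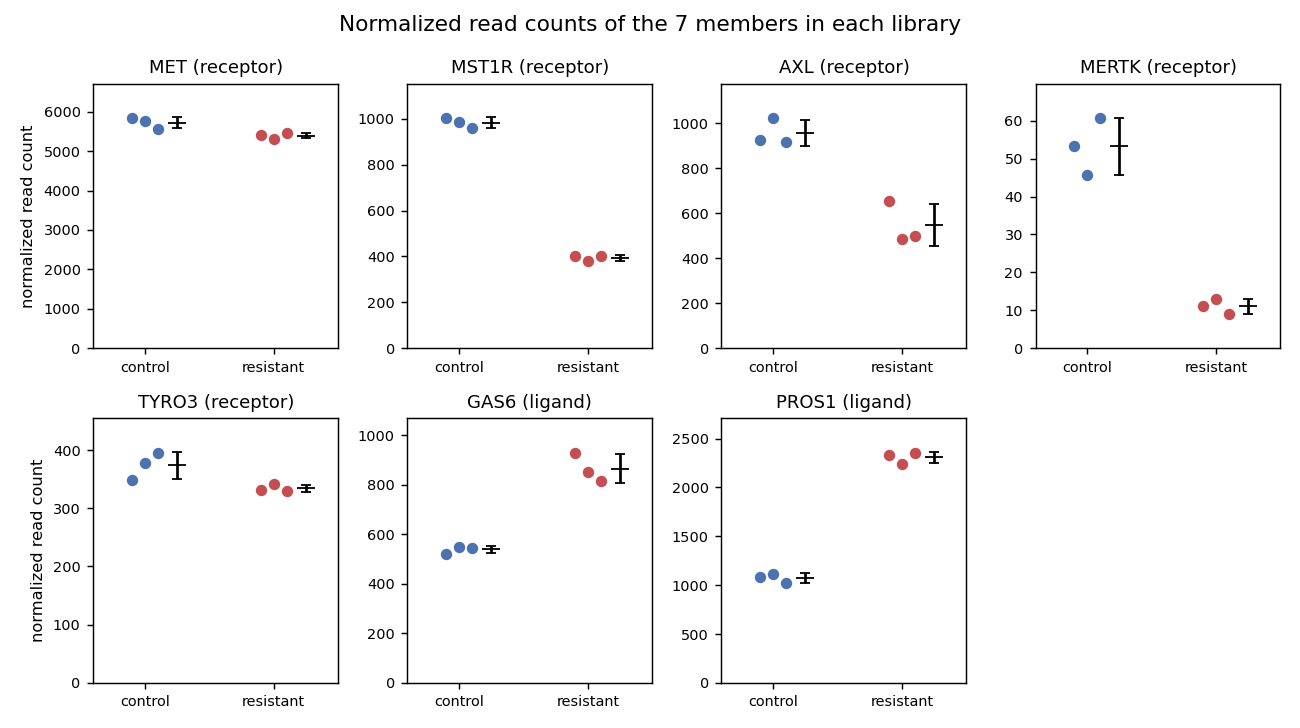
Normalized reads of MET, MST1R, AXL, MERTK, TYRO3, GAS6 and PROS1 in each of the 6 libraries, each on its own linear axis from 0. Points are libraries by group, with the mean and SD of the group beside them. The resistant points lie below the control points for MST1R, AXL and MERTK and above them for GAS6 and PROS1, while for MET and TYRO3 the groups lie close together.

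The bases just upstream of 4 of these genes are shown because 3 of them (AXL, MST1R and GAS6) changed in different directions while MET was not called. Each run holds the 250 bases before the first listed start of the gene, 5′ to 3′ on the strand of the gene, from the RefSeq promoter table on GRCh38.p14. RefSeq starts can differ from the gene coordinates given below, and the AXL window reaches into AXL. Annotated exons of any gene cover 20 bases of the AXL window, 217 of MST1R, 128 of GAS6 and 0 of MET. Capitals mark GGGCGG, the core bound by SP1, on either strand.

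AXL, chr19:41218973-41219222, plus strand: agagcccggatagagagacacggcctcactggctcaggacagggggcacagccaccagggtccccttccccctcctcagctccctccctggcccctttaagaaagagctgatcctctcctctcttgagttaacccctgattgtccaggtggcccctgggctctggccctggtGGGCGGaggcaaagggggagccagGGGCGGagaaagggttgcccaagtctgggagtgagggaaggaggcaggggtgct
MST1R, chr3:49903874-49904123, minus strand: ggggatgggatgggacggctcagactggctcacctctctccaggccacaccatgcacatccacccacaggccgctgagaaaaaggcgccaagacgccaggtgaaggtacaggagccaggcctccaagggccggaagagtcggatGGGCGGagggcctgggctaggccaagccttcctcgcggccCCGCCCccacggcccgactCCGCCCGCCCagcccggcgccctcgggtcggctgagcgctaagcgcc
GAS6, chr13:113864077-113864326, minus strand: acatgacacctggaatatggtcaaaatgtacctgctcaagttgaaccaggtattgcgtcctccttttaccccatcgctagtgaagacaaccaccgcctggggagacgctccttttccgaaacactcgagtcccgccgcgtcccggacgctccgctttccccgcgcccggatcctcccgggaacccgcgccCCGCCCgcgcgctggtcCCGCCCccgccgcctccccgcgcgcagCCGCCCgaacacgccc
MET, chr7:116671946-116672195, plus strand: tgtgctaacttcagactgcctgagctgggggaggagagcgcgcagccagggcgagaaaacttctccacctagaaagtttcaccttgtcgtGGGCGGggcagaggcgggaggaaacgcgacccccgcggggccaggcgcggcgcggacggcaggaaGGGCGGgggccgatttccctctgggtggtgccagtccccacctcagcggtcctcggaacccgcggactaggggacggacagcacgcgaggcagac

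The SP1 core was found 2 times in the AXL window, 4 times in MST1R, with matches that overlap each other, 3 times in GAS6 and 2 times in MET. Among 35116 promoters of the same length, 42.6% held it at least once. The TEAD core GGAATG, the AP-1 motif TGANTCA and the HIF core ACGTG, sought on both strands, did not occur in these 4 windows, and 11.9%, 6.57% and 18.5% of all promoters held them. GC content was 64.4% in the AXL window, 70.8% in MST1R, 66.8% in GAS6 and 68.4% in MET, against a median of 58.0%. AXL has another listed start, whose window holds 1 TEAD core and 2 HIF cores. A match describes letters only, and the genes that changed and MET all held the SP1 core.

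MET (ENSG00000105976, GRCh38 chr7:116672390-116798386, plus strand) had 5841, 5759 and 5569 normalized reads in control replicates 1 to 3 and 5423, 5317 and 5456 in the resistant replicates. Every resistant library lay below every control library, but by little. The means were 5723 ± 140 (SD, n = 3) and 5399 ± 72.7 (SD, n = 3), and the log2 fold change was -0.08 ± 0.06, with a 95% interval from -0.21 to 0.04 and an adjusted p of 0.278 in limma. The direction depended on the scaling. Quantile normalization gave 0.05, and centring each library on its median gave -0.22 with an adjusted p of 0.00403, a scaling that shifts the median of all genes from 0.01 to -0.12. No gene of the annotation shares exon bases with MET.

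MST1R (ENSG00000164078, chr3:49887002-49903873, minus strand) fell strongly. It had 1003, 988 and 958 normalized reads in the control libraries and 402, 380 and 401 in the resistant ones. No resistant library came near the controls. Means were 983 ± 23.0 (SD, n = 3) and 394 ± 12.1 (SD, n = 3), a 2.49-fold higher level in control cells, with a log2 fold change of -1.32 ± 0.08 and an adjusted p of 2.25e-12 (limma). The antisense gene ENSG00000230698, which shares 327 exon bases or 6.23% of the exons of MST1R, was not analysed here. Of the pair of MET family receptors, then, MST1R was lower and MET was not called different. MET made up 81.3% ± 0.0196 (SD, n = 3) of the per-kilobase level of the pair in control libraries and 91.1% ± 0.148 (SD, n = 3) in resistant libraries.

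AXL (ENSG00000167601, chr19:41219203-41261766, plus strand), the TAM receptor with the highest level here, fell. Control libraries held 925, 1023 and 918 normalized reads and resistant libraries 654, 486 and 500. Replicate 1, the resistant library that stood apart, had the highest AXL of its group and still lay under all controls. The means were 955 ± 58.2 (SD, n = 3) and 547 ± 92.9 (SD, n = 3), 1.75-fold higher in control cells. The log2 fold change was -0.82 ± 0.10, with a 95% interval from -1.02 to -0.61 and a limma adjusted p of 3.95e-07. Without resistant replicate 1 it was -0.95. The antisense gene ENSG00000269652 shares 67 exon bases with AXL and held at most 2.08 normalized reads.

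MERTK (ENSG00000153208, chr2:111898479-112029561, plus strand), the TAM receptor known from clearance of dying cells by phagocytes, had the largest fold change of the set. It was low throughout, at 53.4, 45.7 and 60.7 normalized reads in control and 11.2, 12.9 and 8.88 in resistant libraries. The groups lay far apart relative to their spread, with means of 53.3 ± 7.50 (SD, n = 3) and 11.0 ± 2.03 (SD, n = 3). Control cells had a 4.84-fold higher level, and the log2 fold change was -2.18 ± 0.28, with a 95% interval from -2.76 to -1.60 and an adjusted p of 8.29e-07 in limma. In absolute size it exceeded the change of 97.1% of tested genes, compared with 88.6% for MST1R and 73.7% for AXL.

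TYRO3 (ENSG00000092445, chr15:41557675-41583586, plus strand), the remaining TAM receptor, was not called. Controls held 349, 378 and 395 normalized reads and resistant libraries 331, 341 and 329. The highest resistant library was just below the lowest control. Means were 374 ± 23.3 (SD, n = 3) and 334 ± 6.44 (SD, n = 3), with a log2 fold change of -0.16 ± 0.10, an interval from -0.36 to 0.04 and an adjusted p of 0.192 (limma). Centring on the median gave -0.30 and an adjusted p of 0.0157. Its pseudogene TYRO3P, a near copy that could take or give reads, held at most 2.89 normalized reads.

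GAS6 (ENSG00000183087, chr13:113820549-113864067, minus strand), a ligand of all 3 TAM receptors, rose. Controls held 521, 550 and 545 normalized reads and resistant libraries 928, 852 and 815. No libraries overlapped between groups. The mean went from 538 ± 15.5 (SD, n = 3) to 865 ± 57.7 (SD, n = 3), 1.61-fold, with a log2 fold change of 0.68 ± 0.08, an interval from 0.52 to 0.85 and an adjusted p of 1.81e-07 in limma.

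A non-coding gene on the opposite strand, GAS6-AS1 (ENSG00000233695, chr13:113815630-113845744, plus strand), went the other way. It had 983, 962 and 852 normalized reads in control and 556, 629 and 542 in resistant libraries, with a log2 fold change of -0.70 ± 0.08 and a limma adjusted p of 2.88e-07. It was named after its values were seen. The pair share 421 exon bases, 7.01% of the exons of GAS6 and 5.87% of those of GAS6-AS1. Summed, both genes gave 1471 ± 64.3 (SD, n = 3) normalized reads in control and 1441 ± 72.8 (SD, n = 3) in resistant libraries, with overlapping ranges and an exact two-sided permutation p of 0.5. GAS6 held 36.7% ± 2.20 (SD, n = 3) of that sum in control and 60.0% ± 2.52 (SD, n = 3) in resistant libraries, without overlap, at an exact permutation p of 0.1, the smallest that 3 against 3 allows, and 0.133 after Benjamini-Hochberg adjustment over 4 quantities. Strand handling in the counting was not given in the sources used here, and without it reads from the shared bases cannot be assigned to GAS6 or to GAS6-AS1.

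PROS1 (ENSG00000184500, chr3:93873033-93980003, minus strand) encodes protein S, an anticoagulant cofactor that also activates MERTK and TYRO3, and it rose with a larger fold change than GAS6. Controls held 1085, 1116 and 1021 normalized reads and resistant libraries 2328, 2243 and 2354. Every resistant library was far above every control. The mean went from 1074 ± 48.7 (SD, n = 3) to 2308 ± 58.1 (SD, n = 3), 2.15-fold, with a log2 fold change of 1.10 ± 0.07, an interval from 0.97 to 1.24 and an adjusted p of 2.93e-12 in limma. Its near copy PROS2P held 0 reads except for 3.12 normalized reads in control replicate 2.

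**Figure D2:**
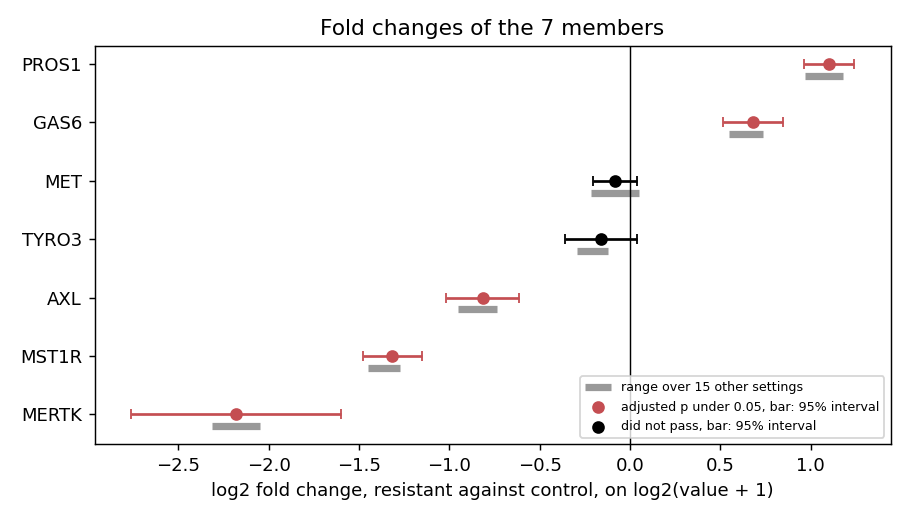
Log2 fold change, resistant minus control, of the 7 genes with 95% intervals from limma (bars) and, in grey, the range of values over 15 alternative settings. Intervals of MET and TYRO3 span 0. PROS1 (1.10) and GAS6 (0.68) lie to the right, and AXL (-0.82), MST1R (-1.32) and MERTK (-2.18) to the left.

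To compare levels between genes, normalized reads were divided by the length of each gene in kilobases as deposited. In control libraries MET was highest at 813 ± 19.9 normalized reads per kilobase (SD, n = 3). PROS1 followed at 197 ± 8.95, MST1R at 187 ± 4.38 and AXL at 185 ± 11.3, and these 3 had overlapping ranges. GAS6 came next at 89.6 ± 2.59, then TYRO3 at 34.2 ± 2.13 and MERTK at 11.3 ± 1.60 (SD, n = 3).

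In the resistant libraries the order was MET at 767 ± 10.3, PROS1 at 424 ± 10.7, GAS6 at 144 ± 9.61, AXL at 106 ± 18.0, MST1R at 75.1 ± 2.30, TYRO3 at 30.5 ± 0.59 and MERTK at 2.34 ± 0.43 normalized reads per kilobase (SD, n = 3). No neighbours in that order overlapped. GAS6 was thus below AXL in control and above it in resistant cells. That order rests on the length used. With the longest coding transcript of each gene, an alternative chosen after seeing the data, GAS6 was at 216 and AXL at 202 per kilobase in control libraries.

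Ligand and receptor transcripts of the TAM system moved in opposite directions when summed per kilobase. The 3 receptors together went from 231 ± 10.5 to 139 ± 17.8, and GAS6 and PROS1 together from 287 ± 9.23 to 568 ± 14.2 (SD, n = 3). The ratio of ligands to receptors was 1.28, 1.22 and 1.22 in the control libraries and 3.65, 4.32 and 4.40 in the resistant ones. PROS1 made the larger part of the ligand sum and AXL that of the receptor sum. Since PROS1 acts on MERTK and TYRO3, this ratio is not a balance of matched ligands and receptors. Resistant replicate 1, with its higher AXL, had the lowest ratio of its group and was still far above the controls. The ratio of GAS6 to AXL was 0.484 ± 0.0237 in control and 1.37 ± 0.144 in resistant libraries (SD, n = 3), and that of MET to AXL 4.40 ± 0.253 and 7.36 ± 1.11. With the longest coding transcript as length, the ratio of ligands to receptors was 1.98 ± 0.0498 and 6.28 ± 0.558, and that of GAS6 to AXL 1.07 ± 0.0526 and 3.04 ± 0.319 (SD, n = 3), so their absolute size depends on the length used.

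Within the TAM receptors, AXL kept the main share, at 80.3% ± 1.69 in control and 76.1% ± 3.08 in resistant libraries, with overlapping ranges. The share of TYRO3 was 14.8% ± 0.930 and 22.2% ± 2.84, and that of MERTK 4.93% ± 0.851 and 1.70% ± 0.383 (SD, n = 3), both without overlap. GAS6 was 31.3% ± 1.20 of the ligand sum in control and 25.3% ± 1.35 in resistant libraries. Of 10 such sums, shares and ratios, 9 did not overlap between groups. All 10 were built from the 7 genes, none of which overlapped between groups, as for 50.1% of tested genes. They are therefore not independent of each other or of the results for single genes. Each of these 9 had an exact permutation p of 0.1, the smallest possible with 3 against 3, and 0.111 after adjustment over the 10.

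**Figure D3:**
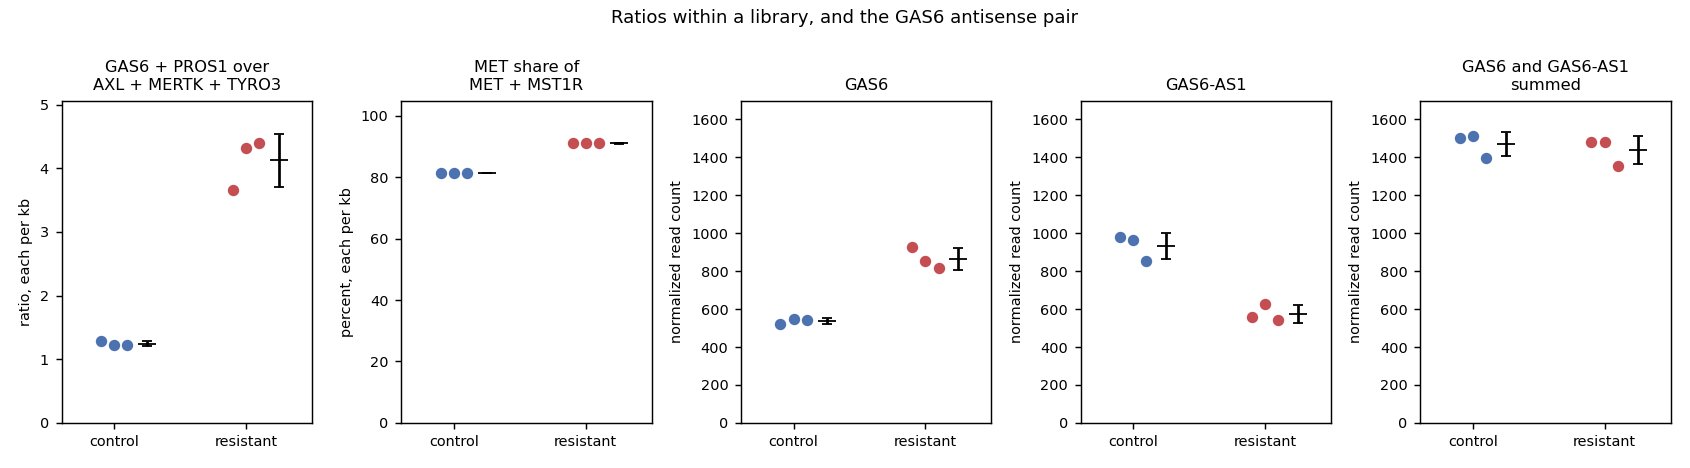
The ratio of TAM ligands to TAM receptors and the MET share of MET and MST1R (percent), both from normalized reads per kilobase, and normalized reads of GAS6, GAS6-AS1 and their sum. Points are libraries by group, with mean and SD beside them. The ratio of TAM ligands to TAM receptors lies between 1.22 and 1.28 in control and between 3.65 and 4.40 in resistant libraries, while the sum of GAS6 and GAS6-AS1 overlaps between the groups.

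The other genes of these pathways were taken from 9 lists, read against the 20.4% of tested genes called higher and 21.1% called lower. The lists overlap, and genes such as CBL, CBLB and SOCS1 are counted in each list that holds them. Genes outside the naming rule are named where a list had 5 or fewer calls in a direction, and they were chosen after their values were seen. Adjusted p-values in the paragraphs on these lists are from limma. Fitted without its trend, limma no longer called MST1, HGFAC, HPN, PLXNB1, ITGB1, CRK, ATP11A, NQO1, TWF1, JUND or ERBB2 among the genes named from them.

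The first list held MST1 itself beside proteases and inhibitors that set the activity of HGF and MST1 protein. Of its 12 tested genes, 5 were higher, 4 lower and 3 not called, with a median log2 fold change of -0.36. That median was unstable, at -0.23 without resistant replicate 1, -0.09 without resistant replicate 3, -0.05 without control replicate 2, -0.65 with a pseudocount of 0.1, -0.22 with a minimum of 5 and 0.27 in edgeR, which tested fewer genes. ST14, the matriptase that cleaves the HGF precursor, fell from 196 ± 9.82 to 28.5 ± 7.89 normalized reads (SD, n = 3; log2 fold change -2.78, adjusted p 5.45e-11). Its inhibitors fell with it. SPINT1 went from 374 ± 42.1 to 75.7 ± 8.11 (log2 fold change -2.29, adjusted p 1.61e-12), and its relative SPINT2 had a log2 fold change of -1.25. PLAU, the urokinase, fell from a mean of 3416 to 1636. SERPINA5, the protein C inhibitor, rose from 49.6 ± 8.38 to 217 ± 7.46 (log2 fold change 2.12, adjusted p 1.38e-10). MST1, the ligand of MST1R, rose from 93.9 ± 9.66 to 158 ± 42.7 (log2 fold change 0.71, adjusted p 0.00161). Its near copy MST1P2 held a mean of 54.8 normalized reads in control libraries, so reads of MST1 may be split and its value is uncertain. The proteases TMPRSS2, from a mean of 11.4 to 44.5, HGFAC (log2 fold change 1.66) and HPN (1.05) also rose, at low levels. HPN, at a mean of 24.6 in the resistant libraries, was not called by edgeR or DESeq2. Its call was also lost without resistant replicate 1 or 2 or control replicate 3, and without control replicate 1, where its log2 fold change was 0.56.

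Among 15 tested co-receptors and partners of MET, 5 were higher and 8 lower, with a median log2 fold change of -0.27. ITGB4, an integrin subunit that docks MET signalling, fell from 1134 ± 94.4 to 265 ± 112 normalized reads (SD, n = 3; log2 fold change -2.17, adjusted p 0.00577), with 394 in resistant replicate 1 against 190 and 211 in the others. SDC1, a heparan sulfate proteoglycan that can hold HGF, fell from 3043 ± 242 to 707 ± 25.7 (log2 fold change -2.10, adjusted p 1.09e-16). The plexins PLXNB3, from 738 ± 49.2 to 1152 ± 146 (log2 fold change 0.64, adjusted p 1.51e-06), PLXNB2 (0.42) and PLXNB1 (0.27) rose, as did the tetraspanin CD151 (0.43) and the integrin subunit ITGB1 (0.22). The calls of PLXNB1 and ITGB1 were also lost with median centring, and that of PLXNB1 without resistant replicate 3.

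Among 29 tested adaptors and effectors that act below MET and the TAM receptors, 15 were higher and 5 lower, with a median of 0.23. TNS2, a tensin reported to bind AXL, rose from 639 ± 56.2 to 1354 ± 73.0 normalized reads (SD, n = 3; log2 fold change 1.09, adjusted p 7.05e-11). PLCG1, a phospholipase recruited by active receptors, rose from 914 ± 38.7 to 1718 ± 97.3 (0.91, adjusted p 2.37e-10). VAV3, an exchange factor for small GTPases, fell from 209 ± 30.4 to 58.1 ± 12.9 (-1.84, adjusted p 4.13e-09). GRB2, the adaptor that links receptors to RAS, fell from 2541 ± 29.6 to 1484 ± 84.2 (-0.78, adjusted p 9.52e-10). The other genes lower were PLCG2 (-1.37), RAC1 (-0.55) and CRK (-0.23), and CRK was also lost with quantile normalization and was -0.15 without resistant replicate 1. With median centring 7 genes of the list were higher and 9 lower.

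The 20 tested genes listed for receptor down-regulation split into 7 higher and 8 lower, with a median of 0.05. That median was -0.08 with median centring, 0.018 without control replicate 2 and 0.030 without control replicate 3. CBLC, a ubiquitin ligase of epithelial cells, fell from 70.2 ± 11.1 to 6.19 ± 3.20 normalized reads (SD, n = 3; log2 fold change -3.38, adjusted p 8.70e-09). Its relative CBL, which marks MET for degradation, rose from 1049 ± 49.8 to 1934 ± 92.8 (0.88, adjusted p 2.65e-10). PTPRJ, a phosphatase that acts on MET, rose from 638 ± 29.3 to 1299 ± 50.3 (1.02, adjusted p 5.77e-11), and DCBLD2, a membrane protein, fell from 8980 ± 140 to 3836 ± 369 (-1.23, adjusted p 4.90e-13).

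GAS6 and PROS1 need vitamin K-dependent carboxylation to bind phosphatidylserine. The carboxylase GGCX (log2 fold change 0.12, adjusted p 0.189) and the vitamin K reductase VKORC1 (0.23, adjusted p 0.116) were not called, though GGCX was called at 0.16 without resistant replicate 1 and VKORC1 at 0.38 without resistant replicate 3. They are named for their role and outside the rule. Of 10 tested genes of carboxylation and of phosphatidylserine exposure, 4 were higher and 2 lower, with a median of 0.21. ANO6, a scramblase that exposes phosphatidylserine, rose from 2092 ± 65.8 to 3672 ± 54.7 normalized reads (SD, n = 3; log2 fold change 0.81, adjusted p 1.59e-10), and CALU, which inhibits the carboxylase, from 7065 ± 162 to 10054 ± 230 (0.51, adjusted p 1.22e-07). The flippase subunits TMEM30A (0.44) and ATP11A (0.26) rose too, and ATP11A was also lost without resistant replicate 2, without control replicate 3 and with median centring. XKR8, a scramblase of dying cells, fell from 190 ± 12.8 to 136 ± 3.68 (-0.48, adjusted p 0.00356), and the quinone reductase NQO1 from 3061 ± 98.0 to 2522 ± 84.5 (-0.28, adjusted p 0.000815).

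None of 4 further ligands listed for TAM receptors was called by limma, where 1 had an unadjusted p under 0.05. Of these, edgeR tested 2 and called 0, and DESeq2 called 1. LGALS3, galectin-3, was at 1800 ± 45.3 in control and 1449 ± 334 in resistant libraries (SD, n = 3; log2 fold change -0.34, adjusted p 0.0867). It was called at -0.52 without resistant replicate 1, at -0.47 with median centring and at -0.31 by DESeq2 on recovered reads. LGALS3BP had a log2 fold change of 0.09, which median centring turned to -0.04, and TUB and TULP1 held at most 4.93 normalized reads in a library.

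Of 13 tested genes of TAM feedback and innate signalling, 8 were higher and 3 lower, with a median of 0.33. SOCS1, a feedback inhibitor known to be induced by TAM receptors in myeloid cells, rose from 196 ± 28.1 to 351 ± 46.6 normalized reads (SD, n = 3; log2 fold change 0.84, adjusted p 5.12e-06). IFNAR2, a chain of the type I interferon receptor that pairs with TAM receptors, rose from 23.6 ± 2.72 to 53.6 ± 14.2 (1.12, adjusted p 0.000864). MFGE8, another bridge to phosphatidylserine, fell from 892 ± 56.3 to 605 ± 51.1 (-0.56, adjusted p 5.16e-06). TWF1, an actin-binding protein, was also lower, at -0.30.

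Of 23 transcription factors and cofactors listed as acting at the AXL or MET gene, 7 were higher, 6 lower and 10 not called. The higher count was 4 without resistant replicate 3 and 3 without control replicate 1, and the lower count was 3 without control replicate 2 or 3. Median log2 fold change was 0.07, and -0.06 with median centring, 0.05 without resistant replicate 1, 0.15 without resistant replicate 2 and 0.02 without control replicate 3. FOSL1, an AP-1 subunit, fell from 2079 ± 78.3 to 744 ± 98.9 normalized reads (SD, n = 3; -1.49, adjusted p 4.90e-13). HIF1A, the hypoxia factor known to raise MET, fell from 13016 ± 257 to 4722 ± 1332 (-1.51, adjusted p 0.01), with 3185 in resistant replicate 1 against 5458 and 5523 in the others. YAP1, a TEAD cofactor known to raise AXL, rose from 2376 ± 112 to 3054 ± 167 (0.36, adjusted p 8.12e-05). JUND, another AP-1 subunit, rose from 3202 ± 215 to 3984 ± 375 (0.31, adjusted p 0.000958).

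Of 18 tested receptors known from other bypass routes, 7 were higher and 4 lower, with a median of 0.16 that was 0.03 without resistant replicate 2 and with median centring. DDR2, a collagen receptor, rose from 78.7 ± 14.4 to 292 ± 6.07 normalized reads (SD, n = 3; 1.89, adjusted p 1.35e-10), and FGFR3 from 34.3 ± 6.86 to 90.7 ± 12.6 (1.38, adjusted p 7.88e-06). EPHA2, an ephrin receptor, fell from 1918 ± 168 to 923 ± 126 (-1.06, adjusted p 1.09e-08), and ERBB3, a partner of MET in bypass signalling, from 83.7 ± 10.8 to 40.5 ± 7.08 (-1.04, adjusted p 0.000211). FGFR4 (-0.73) and ERBB2 (-0.25) were also lower, and ERBB2 was also lost without control replicate 1 or 2 and with quantile normalization. EGFR itself was at 5487 ± 401 in control and 4988 ± 739 in resistant libraries (-0.14, adjusted p 0.205). It was called at -0.26 without resistant replicate 1, whose 5841 normalized reads exceeded every control, and at -0.28 with median centring.

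**Figure D4:**
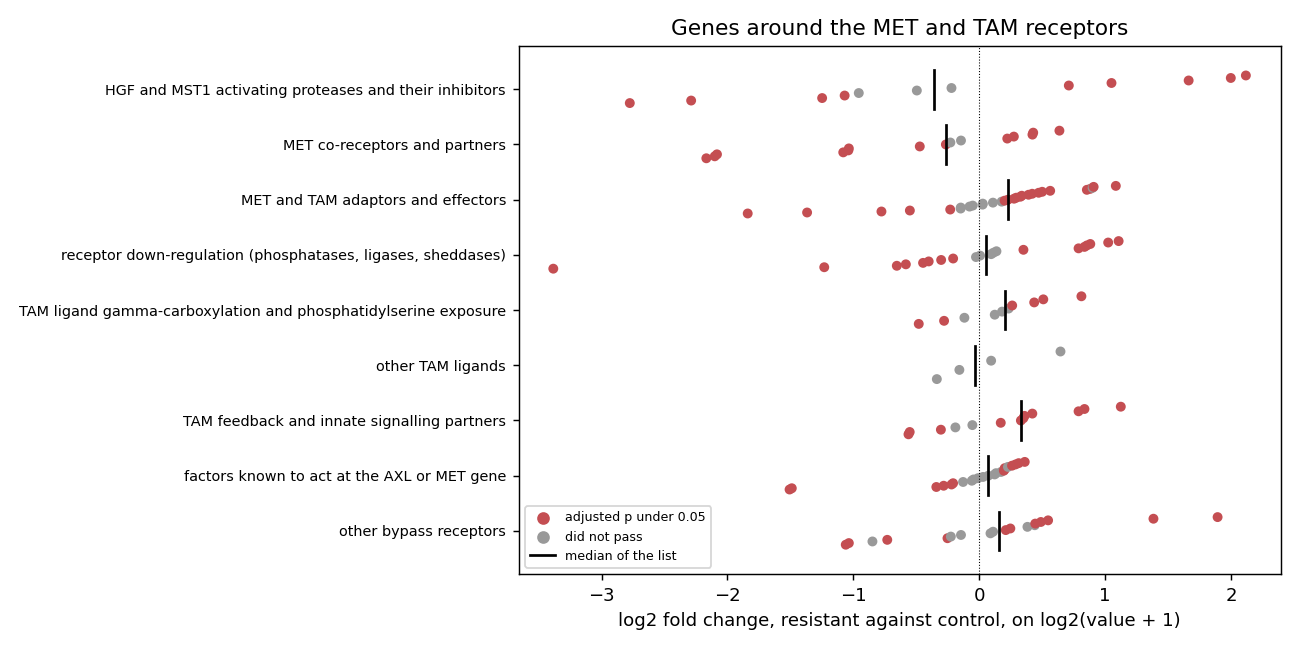
Log2 fold change of each tested gene in the 9 pathway lists, with called genes in red and each list's median as a line. Medians run from -0.36 for the list of HGF and MST1 proteases, with their inhibitors and MST1 itself, to 0.33 for TAM feedback genes. Every list with a call holds genes that moved in both directions.

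The genes around each of the 7 were compared to see whether they moved together with it. Counts are read against the 20.4% of all tested genes called higher and 21.1% called lower. Within 1 Mb of MET, a region where amplification is known in resistance to EGFR inhibitors, 14 genes were tested, of which 3 were higher and 1 lower. The lower gene, CAV1, is the nearest tested coding gene on one side, at a log2 fold change of -0.27 (limma adjusted p 0.00307), a call lost with quantile normalization and in limma without the trend. CAPZA2, on the other side, was at 0.07 (adjusted p 0.437), and -0.06 with median centring. Near AXL 14 of 57 genes were higher and 11 lower, with HNRNPUL1 next to AXL at -0.23 (adjusted p 0.0067), a call lost without control replicate 2 and in limma without the trend.

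PROS1 itself rose, but near it 0 of 8 tested genes were called in limma, 0 at an unadjusted p under 0.05, and 0 by edgeR, which tested 3, or by DESeq2. Near GAS6 5 of 32 genes were higher and 7 lower, and the lower ones include GAS6-AS1, described above. TMEM255B, beside GAS6, fell with a log2 fold change of -0.69. Its coordinates overlap those of GAS6-AS1, which fell by a like amount (-0.70), so it may not be a separate signal. Near MERTK 5 of 37 were higher and 9 lower, near TYRO3 11 and 11 of 58, and near MST1R 22 and 17 of 76.

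**Figure D5:**
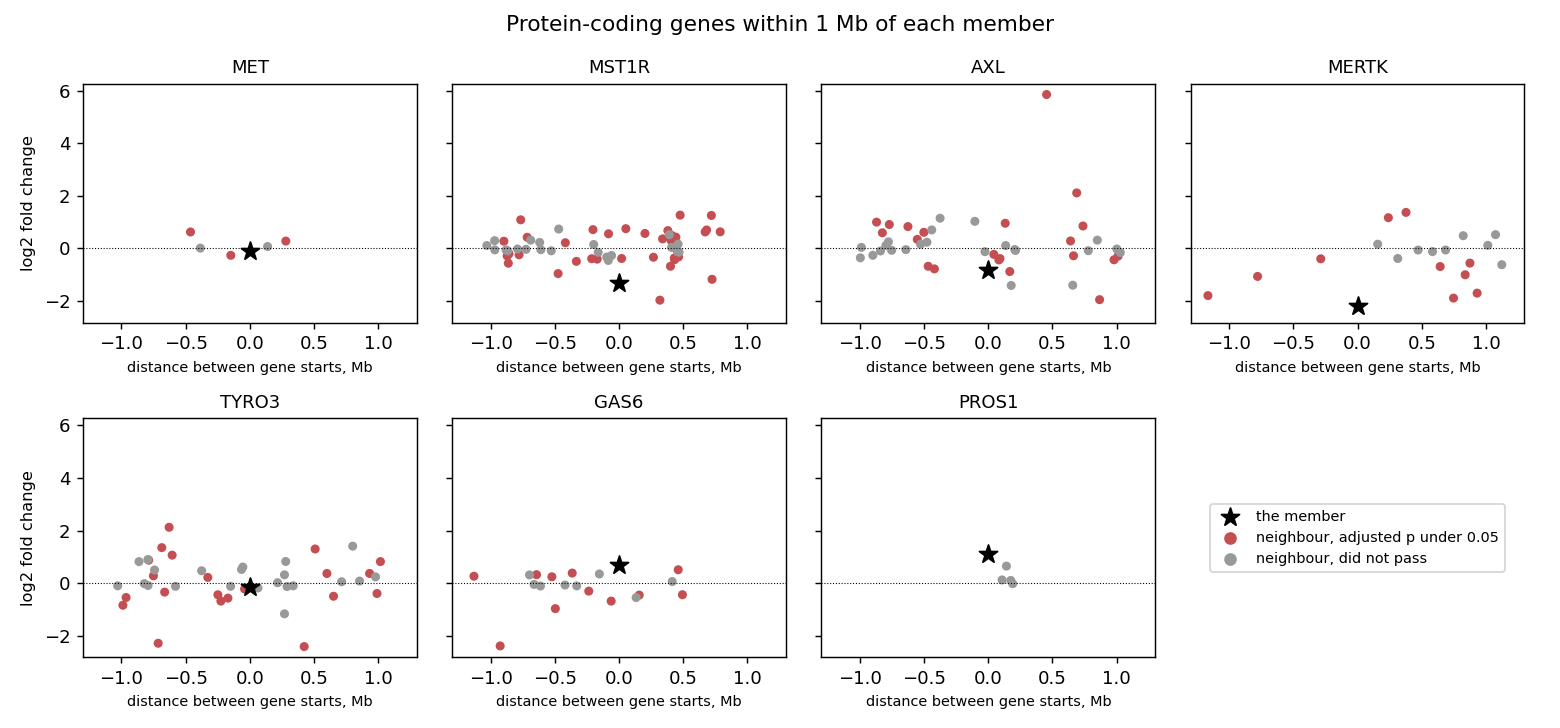
Log2 fold change of tested protein-coding genes within 1 Mb of each of the 7 genes against the distance between gene starts in Mb, with called genes in red and the gene itself as a star; non-coding genes counted in the text are not drawn. Called coding genes of both directions surround MET, AXL, GAS6, MERTK, TYRO3 and MST1R, and none lies near PROS1.

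Other genes followed the same profile over the 6 libraries. The measure was Pearson's r of log2(value + 1) over 11756 coding genes at a mean of 50 or more, and it is a description, since all points share the same 6 libraries and a difference between 2 groups alone gives a high r. PROS1 was most like IL17RD (r = 0.9999), SOX4 (0.9994) and MATN2 (0.9994), with 334 genes over 0.99. MST1R was most like SERPINA1 (0.9998), ATP5MC1 (0.9998) and IGFBP2 (0.9996), with 564 genes over that value. MERTK was most like MAP10 (0.9996), POLR1C (0.9991) and MCRS1 (0.9988). AXL, whose resistant replicate 1 was higher than the others, was most like HNRNPL (0.9991), ARV1 (0.9991) and EZR (0.9988), with 67 genes over 0.99. GAS6 was most like ST3GAL1 (0.9996), SNTB1 (0.9989) and PDZK1IP1 (0.9988). The nearest gene to MET was LRIG1 (0.9933) and to TYRO3 CCDC113 (0.9989), with 4 and 1 genes over 0.99.

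The labelled cell type was checked with marker lists. Epithelial and lung adenocarcinoma markers summed to between 60122 and 63654 normalized reads in control and between 42923 and 50329 in resistant libraries, and 9 of 11 had a mean over 10 across the 6 libraries. Among them KRT7 and KRT8 were abundant in all libraries. Of the 11, limma called 5 lower, EPCAM, CDH1 (log2 fold change -1.66), KRT19 (-1.18), KRT8 (-0.51) and KRT18 (-0.41). It called 2 higher, NKX2-1 and MUC1 (0.91). EPCAM fell from 379 ± 21.9 to 17.6 ± 2.03 (SD, n = 3), while NKX2-1 rose from 287 ± 28.1 to 461 ± 21.0. Fibroblast markers summed to between 5063 and 6081 in control and between 33100 and 36279 in resistant libraries, and 3 of the 7 measured had such a mean. COL1A2, at a mean of 698 in control and 29275 in resistant libraries, made most of the resistant sum, and COL1A1 most of the control sum. Of the 7, 4 were called higher by limma, COL1A2, PDGFRB (log2 fold change 0.44), COL3A1 (means of 2.74 and 11.4) and LUM (0 and 4.22), and 1 lower, FAP (6.78 and 1.58). THY1 had means of 1.65 and 0.658 normalized reads.

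MERTK is a macrophage gene and PROS1 is made by endothelium, so those markers stand beside them. Leukocyte and macrophage markers summed to between 503 and 522 in control and between 321 and 358 in resistant libraries. CD14 made most of both sums, at means of 387 in control and 266 in resistant libraries. CD14 (log2 fold change -0.55) and CSF1R (-1.06) were called lower by limma. ITGAM, at means of 21.8 and 30.5, was not called, and CD68 and LYZ were near 0 in both groups. PTPRC, CD163 and CD3E of the list were not analysed here. Endothelial markers summed to between 295 and 337 in control and between 571 and 765 in resistant libraries. CDH5 rose from 126 ± 3.37 to 579 ± 105 (SD, n = 3) while PECAM1 fell, and VWF had means of 2.73 and 5.09 normalized reads. The part of these marker changes in the changes of the TAM genes was not tested. The share of reads from mitochondrial genes was 6.46% to 7.34% in control and 5.33% to 5.66% in resistant libraries, and its part in the results was not tested.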

How the data were processed

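RNA-seq of 3 resistant and 3 control libraries was analysed, grouped by the titles of the samples. For each library the authors deposited Ensembl genes with their length and 1 signal value per gene, on GRCh38 per the submitters' processing notes. How reads were aligned, counted, assigned to strands and normalized is not given in the sources used here. Every deposited signal value (100%) was, within 0.001 reads, a whole multiple of a step particular to its library, so they are counts divided by a size factor, and whole reads were recovered for the count tests. Because the values were normalized, the main test was the one designed for normalized values. Values were taken as log2(value + 1). A gene was tested if 3 or more libraries held at least 1 normalized read, and groups were compared with limma-trend, robust (limma 3.58.1, R 4.3.3), two-sided, Benjamini-Hochberg adjusted, at 0.05. On recovered reads edgeR 4.0.16 (quasi-likelihood) called 9531 genes and DESeq2 1.42.0 called 8496, against 10204. These were among 15 alternative settings, which included each library left out. The fit was tested on simulated data of 24195 genes, with 100 genes changed 2-fold and 100 changed 1.5-fold. Of these, 99 and 85 were called, beside 16 unchanged genes. Far fewer genes changed there than the 41.5% called in the data. The changed genes were drawn only from those above a minimum mean of reads, and the rates were not split by level. These rates therefore give no detection rate for genes with few reads, such as MERTK, or for data with so many changes.

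Single quantities were compared with exact two-sided permutation tests over libraries. Members and lists were chosen with earlier results of these data known. Named genes were all members; in each list the 2 largest rises and 2 largest falls among called genes at a mean of 50 or more in the higher group; the nearest tested coding neighbours; the 3 coding genes most like each member; and EGFR. Some genes under this rule are not reported here. Gene symbols came with 23695 of 30330 genes. Exon overlaps come from GENCODE 29 and upstream sequences from RefSeq.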

Additional observations from a re-analysis of the deposited data

How the results depend on the processing

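Across 15 alternative settings GAS6, PROS1, AXL, MERTK and MST1R kept their direction and stayed past the threshold. Their log2 fold changes ranged from 0.55 to 0.74 for GAS6, from 0.97 to 1.18 for PROS1, from -0.95 to -0.74 for AXL, from -2.32 to -2.05 for MERTK and from -1.45 to -1.27 for MST1R, and their highest adjusted p was 0.0131, for AXL. Quantile normalization put MET at 0.051. Centring on the median put MET at -0.22 and TYRO3 at -0.30, and both passed the threshold, making 5 members called lower. Median centring moves every gene by the same construction, and the share of higher calls went from 49.1% to 35.8%. With libraries left out in turn, MET ranged from -0.10 to -0.07 and TYRO3 from -0.21 to -0.12. Replicate numbers did not pair the libraries (correlations of same-numbered deviations -0.00148, 0.000115 and 0.00671), and a replicate block gave 10175 calls against 10204 and changed no member's call. LGALS3 alone of the named genes was called with the block and not without it.

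Medians of the lists moved with the scaling. With quantile normalization they were -0.19 for MET co-receptors, 0.29 for adaptors, 0.12 for receptor down-regulation, 0.42 for TAM feedback and 0.16 for factors at the AXL or MET gene. With median centring these were -0.40, 0.094, -0.084, 0.20 and -0.062, and carboxylation and phosphatidylserine exposure was at 0.073 and other bypass receptors at 0.026. Leaving out libraries gave -0.35 to -0.27 for co-receptors, 0.16 to 0.26 for adaptors, 0.018 to 0.065 for down-regulation, 0.29 to 0.34 for feedback, 0.024 to 0.15 for factors and 0.034 to 0.21 for other bypass receptors. The protease median ranged from -0.47 to -0.054 with libraries left out and was 0.27 in edgeR, which tested fewer genes. Reversed single genes were CAPZA2 (-0.065), GGCX (-0.011) and LGALS3BP (-0.040) with median centring, and CYP2S1, a neighbour of AXL at -0.13, which ranged from -0.49 to 0.12 with libraries left out, above 0 without resistant replicate 3 or control replicate 3. The cause was not tested. Limma without the trend called 7573 genes. Reads limit MERTK most, at 8.88 normalized reads in its lowest library.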
